A study of Fukomys damarensis and Heterocephalus glaber and Cavia porcellus with 28 samples.

Results

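Hearts of the naked mole-rat were compared with hearts of the Damaraland mole-rat across all genes of the heart table, using 8 of the 28 libraries of the series. Both are social African rodents that live underground, and both outlive rodents of like size by a wide margin. Of 13928 genes in the table, 10627 were kept because their mean over the 8 libraries was at least 1 above the lowest value the table holds, the value of a gene with 0 reads. A further 3289 genes were below that limit and were left out, and 12 genes of the mitochondrial genome were set apart. The naked mole-rat group held 3 males of 13, 15 and 17 months, and the Damaraland group held 5 males, of which 3 were 48 and 2 were 36 months old. All were untreated as far as the labels say, and no age was shared between the groups, so species and age cannot be told apart. One Damaraland animal carries a different age in its heart and its liver label. Heart libraries of 3 guinea pigs and 3 mice, all male and about 2 months old (2.3 months for the guinea pigs and 2 for the mice), served only to place the mole-rat levels.

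The heart beats without pause, and its muscle cells make nearly all of their ATP in mitochondria, chiefly from fatty acids, with glucose, lactate and ketones as further fuels. Force comes from thick filaments of myosin sliding on thin filaments of actin, troponin and tropomyosin, and calcium released through the ryanodine receptor sets off each contraction. The fast alpha and the slow beta myosin heavy chain (Myh6 and Myh7) differ in speed and energy cost, and species differ widely in how much of each their ventricles hold. Naked mole-rats are known for a low metabolic rate, for surviving very low oxygen and for a heart that changes little with age.

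Values below are the deposited ones, which the authors passed through a variance-stabilising transform and which behave like log2 values, and a difference is always naked minus Damaraland. The scale flattens low genes: a 2-fold change moved the value by 0.946 from 1000 scaled reads but by 0.282 from 10 scaled reads. Scaled reads are the reads of a gene divided by the size factor of its library, recovered from the deposited values. No gene length entered the values, so levels are compared between species within a gene and not between genes, and a different length of the counted transcripts in each species would move the value too. A gene was called when limma gave a Benjamini-Hochberg adjusted p under 0.05 and the difference was at least 1 in size. The p-values measure the spread between these animals.

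Total reads ran from 4089633 to 22526618 in naked and from 8551766 to 22024715 in Damaraland hearts, and naked replicate 3 was the shallowest, with 12.9% of genes at 0 reads. Spearman correlations between libraries were 0.916 to 0.984 within naked, 0.934 to 0.980 within Damaraland and 0.677 to 0.727 between the species. The heart label held in every library by its muscle genes: apart from mitochondrial genes, the 10 genes with the highest mean value over the 8 libraries were Myh6, Myh7, Myl2, Mb, Actc1, Tnnt2, Atp2a2, Tpm1, Ryr2 and Myl3. The summed level of 10 cardiomyocyte markers was nonetheless lower in naked hearts without overlap (696744 to 1163900 against 1454620 to 1867130 scaled reads), with 2 markers called higher and 2 lower. That gap came from Myh6 and Ttn, the lower pair: without them, a sum chosen after the values were seen, the ranges overlapped (551360 to 642352 against 521512 to 708041). In bulk tissue, fewer cells of a type and less RNA per cell cannot be told apart. Of 4 hepatocyte genes, Alb, Fgb and Ttr were called higher and Apoa1 lower in naked hearts, and their sum was 10398 to 29206 against 3326 to 6649 scaled reads. The adipocyte sum was lower in naked hearts (944 to 1634 against 3643 to 5305), as was the Schwann cell and neuron sum (626 to 1148 against 2167 to 4097). The skeletal muscle sum was lower as well (21751 to 29602 against 111377 to 194614). That gap came from Ckm (13672 to 19174 against 106625 to 174566), the only member called lower. Acta1, the next largest part of the sum in naked hearts (7412 to 10142), was not called (0.93). The skeletal myosin genes Myh1, Myh2 and Myh4 were called higher in naked hearts. The sums of endothelial, fibroblast, smooth muscle and leukocyte markers overlapped between the species, although single markers were called. Of 8 tested fibroblast markers 3 were called lower in naked and 0 higher. Of 9 smooth muscle and pericyte markers 2 were lower and 1 higher, of 4 tested leukocyte markers 1 was lower, and of 9 endothelial markers 0 were called. The part of tissue make-up in the results below was not tested.

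Of the 10627 genes tested, 3192 were called (30.0%), 1545 higher in naked (14.5%) and 1647 lower in naked (15.5%). The median difference over all genes tested was -0.01. The shares of 14.5% and 15.5% are the background for the gene lists below, and a list count near them is not a result about that list. For 3060 of the called genes, 28.8% of those tested, every naked library lay on one side of every Damaraland library, while 52.1% of all tested genes did not overlap whether called or not. Differences of at least 2 were found for 865 called genes (393 higher and 472 lower) and of at least 4 for 77 (31 higher and 46 lower). In 593 called genes, 288 higher and 305 lower, the lower species had a mean within 1 of the value of 0 reads, which corresponds to 20.6 scaled reads. For 735 called genes (23.0%, against 17.0% of all genes tested) the naked mean alone lay outside the range between the guinea pig and mouse means. For 578 (18.1%, against 14.2%) the Damaraland mean alone did.

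**Figure D1:**
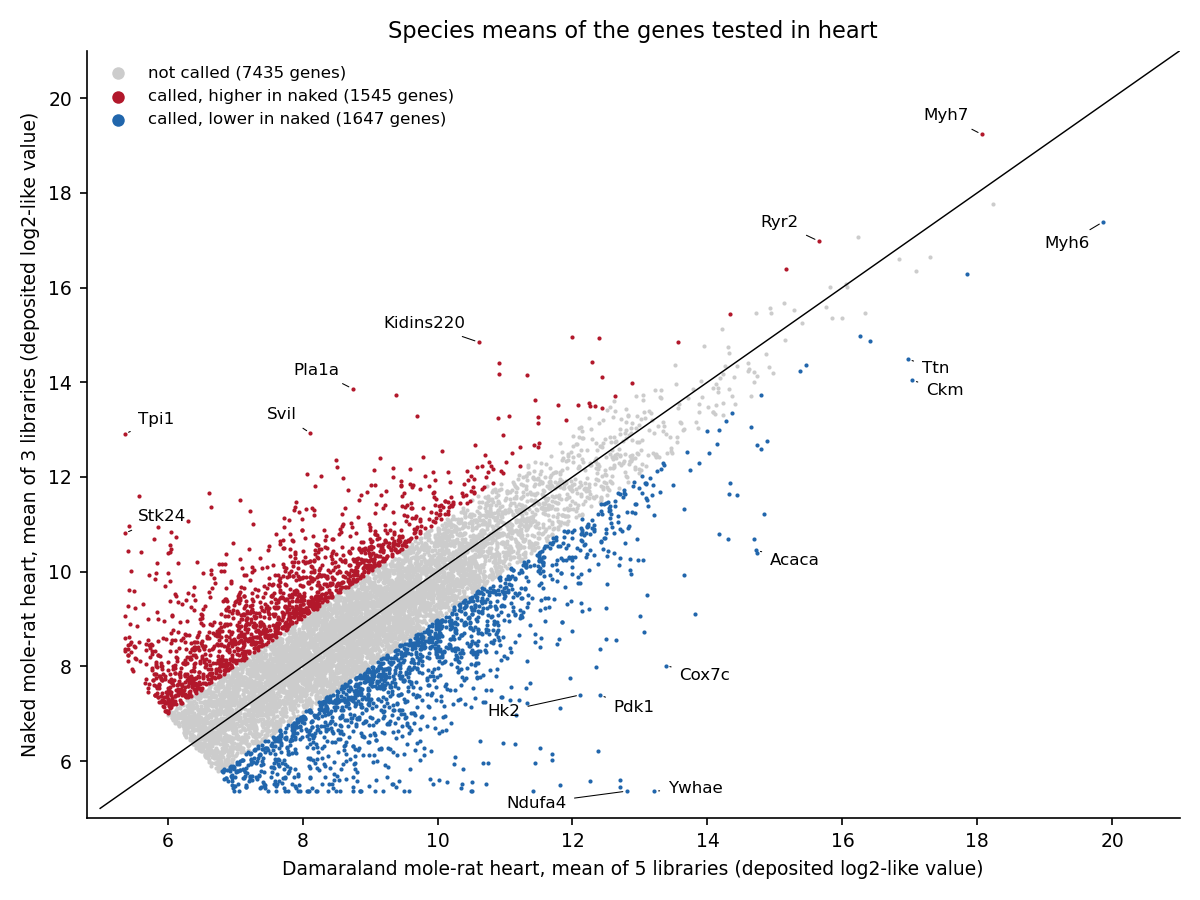
Mean deposited log2-like value of each of the 10627 tested genes in 5 Damaraland (horizontal axis) and 3 naked mole-rat hearts (vertical axis), with called genes coloured by direction and the line of equal values drawn. The 1545 genes called higher in naked lie above the line and the 1647 called lower lie below it, and Ywhae, Ndufa4, Tpi1 and Stk24 lie at the value of 0 reads in one species.

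The largest differences were taken from called genes whose libraries did not overlap between the species. Both species means also had to be at least 1 above the value of 0 reads. The differences that were largest in the naked direction were led by Pla1a, a phospholipase that acts on phosphatidylserine. Pla1a (ENSMUSG00000002847) stood at 13.84, 13.64 and 14.10 in the naked hearts and at 8.21, 9.27, 8.26, 8.77 and 9.19 in the Damaraland hearts. The guinea pig and mouse means of 6.80 and 7.31 lay below both mole-rats. The difference was 5.12 (SE 0.27, limma adjusted p 2.27e-08), which is 40.3 times the scaled reads.

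Kidins220 encodes a membrane scaffold of neurotrophin signalling. It had values of 15.10, 14.92 and 14.52 in naked hearts and of 10.40, 10.57, 10.52, 10.86 and 10.71 in Damaraland hearts, a difference of 4.23 (SE 0.19, limma adjusted p 1e-08). Damaraland, guinea pig (11.09) and mouse (10.44) hearts were close to each other, and the naked hearts stood apart from them. Myh8, the perinatal skeletal myosin heavy chain, showed the same arrangement, with naked values of 11.29, 11.48 and 12.18 and Damaraland values of 6.39, 6.94, 5.90, 7.00 and 6.81. Its guinea pig and mouse means were 6.16 and 6.02, and the difference was 5.04 (SE 0.28, limma adjusted p 3.52e-08). Myosin heavy chains share long stretches of sequence, so reads may be divided between them.

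For other genes it was the Damaraland heart that stood apart. Cxcl12, a chemokine made by stromal and endothelial cells, was at 11.14, 11.58 and 11.78 in naked hearts, near the guinea pig and mouse means of 11.66 and 11.39. In Damaraland hearts it was at 7.30, 7.17, 6.53, 7.12 and 7.24, a difference of 4.43 (SE 0.22, limma adjusted p 1.61e-08), and in liver it was called in the same direction with a difference of 4.91. Svil, which encodes the membrane-bound actin-binding protein supervillin, also had outgroup means (13.36 and 13.16) at the naked level. Its naked values were 13.21, 13.26 and 12.31, its Damaraland values 8.42, 8.32, 8.16, 7.84 and 7.82, and its liver difference of 4.75 was as large as the heart difference of 4.81.

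The other 7 genes of this set were Wdr62 (a centrosome protein), Lbh (a transcription cofactor of heart and limb development), Cadps and Cplx1 (both of vesicle release), and Rap1gap2, Spata13 and Psd3 (regulators of small GTPases). Their differences ran from 3.74 for Psd3 to 4.72 for Wdr62. Cplx1 was at the value of 0 reads or close to it in guinea pig and mouse, while both mole-rats had reads (12.05 ± 0.99 SD in naked, n = 3, and 8.06 ± 0.55 SD in Damaraland, n = 5).

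The 12 differences that were largest in the Damaraland direction held several genes of energy metabolism. Cox7c, a small subunit of cytochrome c oxidase, was at 7.84, 7.31 and 8.89 in naked hearts and at 13.14, 13.67, 13.92, 12.96 and 13.22 in Damaraland hearts, where it matched the guinea pig and mouse means of 12.94 and 13.04. The difference was -5.37 (SE 0.33, limma adjusted p 8e-08), and Damaraland hearts had 51.5 times the scaled reads. Pdk1, a kinase that switches off pyruvate dehydrogenase, was at 7.88, 7.38 and 6.91 against 13.04, 12.30, 12.76, 12.04 and 11.90. Its difference was -5.02 (SE 0.29, limma adjusted p 4.79e-08).

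Hk2, the insulin-responsive hexokinase of muscle, had naked values of 7.08, 7.34 and 7.78 and Damaraland values of 12.20, 11.72, 12.61, 11.80 and 12.27. The guinea pig mean of 8.86 lay nearer to the naked hearts and the mouse mean of 12.99 nearer to the Damaraland hearts. The difference was -4.72 (SE 0.24, limma adjusted p 1.77e-08), while in liver, where Hk2 was low in both species, the difference was 0.27 and was not called. Acaca, acetyl-CoA carboxylase 1, whose product malonyl-CoA is used in fatty acid synthesis and restrains fatty acid import into mitochondria, was at 10.37, 10.42 and 10.55 in naked hearts. In Damaraland hearts it was at 15.13, 14.86, 14.89, 14.79 and 13.95, far above guinea pig and mouse (10.33 and 9.22), with a difference of -4.28 (SE 0.25, limma adjusted p 5.37e-08). Clu, the extracellular chaperone clusterin, was at 10.31, 10.09 and 10.77 against 14.68, 15.28, 14.44, 14.21 and 15.07, a difference of -4.35 (SE 0.26, limma adjusted p 7.73e-08). The other 7 members were Anapc7 (anaphase-promoting complex), Cnot1 (scaffold of the main deadenylase complex), Orc6 (replication origin recognition), Arhgef12 (an activator of RhoA), Prune2, Polr2m and Synpo2 (an actin-bundling protein of muscle), with differences from -4.70 to -4.20. All 7 were called lower in naked liver as well.

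**Figure D2:**
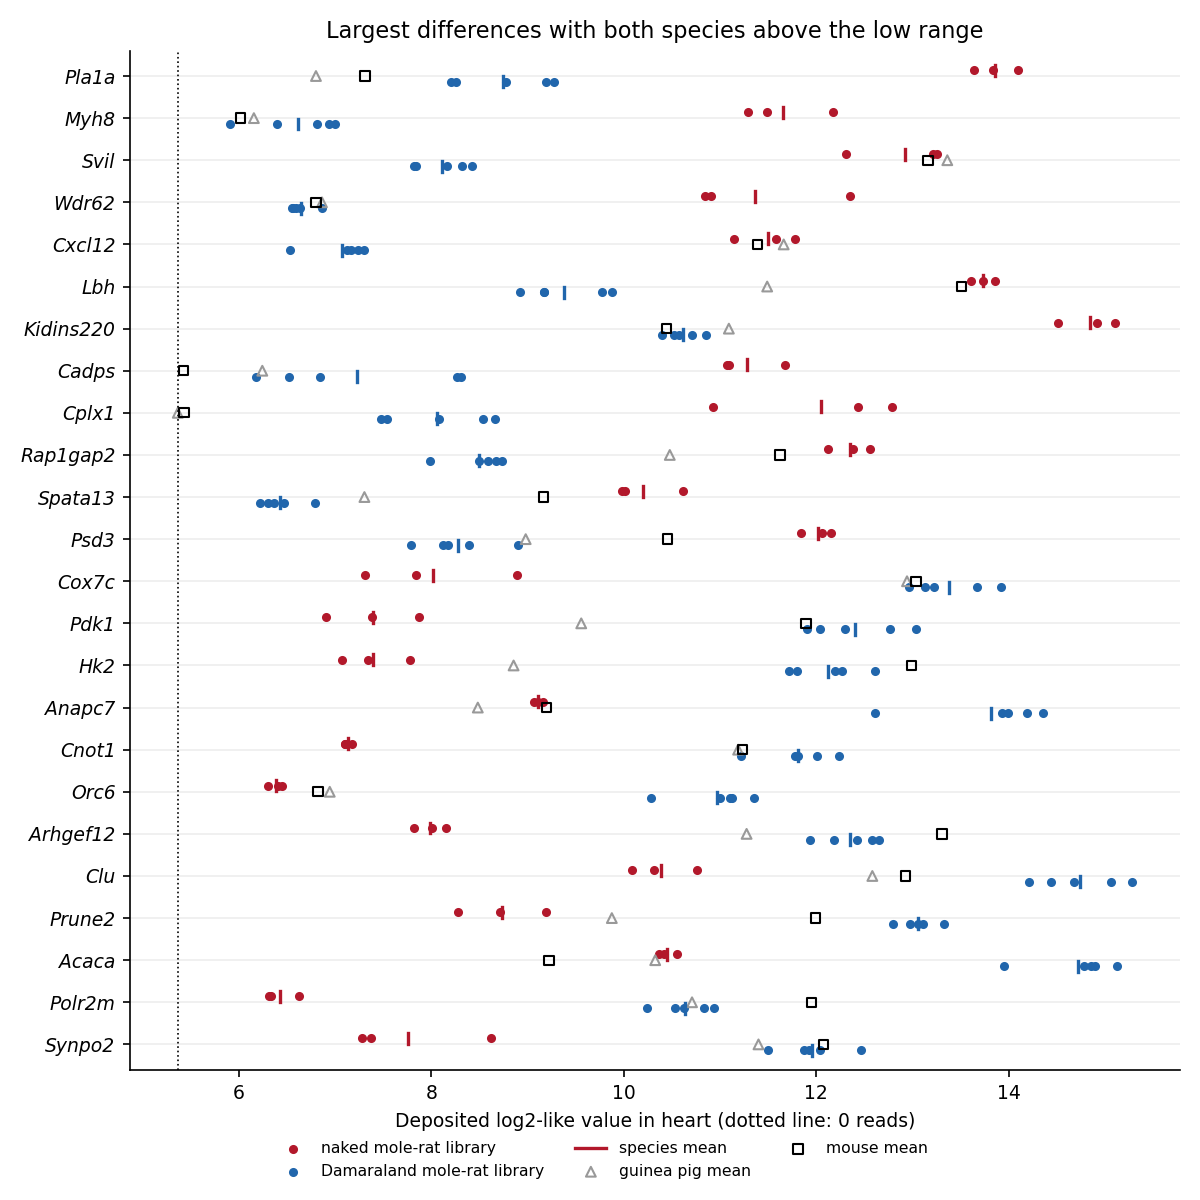
Deposited log2-like value in every naked and Damaraland mole-rat heart library (points, with the species mean as a bar) for the 12 largest differences in each direction among called genes with both species means at least 1 above the value of 0 reads (dotted line), beside guinea pig and mouse means. The libraries of the species do not overlap for any of the 24 genes because this was a condition of their choice. The outgroup means lie with the naked hearts for some (Svil, Cxcl12) and with the Damaraland hearts for others (Kidins220, Cox7c).

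Some genes had no reads, or almost none, in one species. Ywhae, a 14-3-3 adaptor protein, was listed at 0 in all naked hearts and had 7684 to 10879 scaled reads in Damaraland hearts. Guinea pig hearts were also nearly without Ywhae reads (3.83 to 9.10 scaled reads), while mouse hearts had 6210 to 6360. Ndufa4, a subunit found in complex I and cytochrome c oxidase preparations, was listed at 0 in all naked hearts and livers and had 3645 to 11244 scaled reads in Damaraland hearts. In the other direction Tpi1, the glycolytic triosephosphate isomerase that nearly every cell needs, was listed at 0 in all Damaraland hearts and livers, against 2978 to 12707 scaled reads in naked hearts. Ndufa4 and Tpi1 had at least 4606.7 scaled reads in every guinea pig and mouse heart. In all, 29 tested genes were listed at 0 in all 3 naked hearts, of which 18 were also at 0 in all naked livers. There were 6 such genes in the 5 Damaraland hearts, Tpi1 and the kinase gene Stk24 among them, and all 6 were also at 0 in every Damaraland liver. The counts of 29 and 6 depend on the filter, which used the mean over 3 naked and 5 Damaraland hearts. Over all genes of the table, 888 were at 0 in every naked heart and 704 in every Damaraland heart. Of the 6 tested genes at 0 in Damaraland hearts, 5 are listed as protein-coding in the RefSeq annotation of the Damaraland genome (assembly DMR_v1.0_HiC). Tpi1 and Stk24 are among these 5, and 91.7% of all tested genes are listed there. Whether that annotation was the transcript set used is not given in the sources used here. Rpl4, Hsp90aa1 and Golga4 had at most 3.70 scaled reads in any naked heart, and Glp2r, Pdzd2 and Eps8l2 at most 15.9 in any Damaraland heart. Rpl4, Hsp90aa1 and Golga4 had at least 1899 scaled reads in every guinea pig and mouse heart. Pdzd2 had 5176 to 6104 in guinea pig and 2000 to 2185 in mouse hearts, while Glp2r (at most 2.30) and Eps8l2 (at most 35.2) were low in both. Differences of such genes are measured from the value of 0 reads and are not folds.

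The 12 mitochondrially encoded genes code for respiratory chain and ATP synthase subunits. They took 22.7% to 26.9% of all reads in naked hearts (24.6% ± 2.15 SD, n = 3) and 0.0158% ± 0.0111 (SD, n = 5) in Damaraland hearts. The difference of 24.5 percentage points gave p = 0.0179 in an exact two-sided permutation test, the smallest p that the 56 possible splits allow. Mouse hearts had 24.0% and guinea pig hearts 10.3% on average. The lowest value of any of these genes in a naked heart (12.35, mt-Atp8) was above the highest in a Damaraland heart (10.29, mt-Co1). Such reads were nearly absent from Damaraland livers as well, at 0.00339% to 0.0172%. All 12 genes are present in the RefSeq annotation of the Damaraland mitochondrial genome. Whether the transcript set used for this species held them is not given in the sources used here. The cause of the near-absence of these reads was not tested.

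In the thick filament the species differed in myosin heavy chains. Myh6, the fast alpha chain, was at 18.98, 16.27 and 16.90 in naked hearts and at 19.55, 19.85, 19.98, 19.89 and 20.04 in Damaraland hearts, so naked replicate 1 lay close to the Damaraland range and the other two well below it. The difference was -2.48 (SE 0.48, limma adjusted p 0.000848). Myh7, the slow beta chain, was at 18.91, 19.52 and 19.27 against 17.12, 18.87, 17.62, 18.73 and 18.00. Its difference of 1.17 (SE 0.39, limma adjusted p 0.0215) did not keep the call without naked replicate 2 (1.02, adjusted p 0.0849), naked replicate 3 (1.15, adjusted p 0.0573), Damaraland replicate 3 (1.05, adjusted p 0.0505) or Damaraland replicate 1, where it was 0.93. Within a library, Myh6 made up 51.2%, 9.52% and 16.2% of the scaled reads of both chains in the naked hearts. In Damaraland hearts it made up 84.4%, 66.3%, 83.7%, 69.2% and 80.4%, so the groups did not overlap. Mouse hearts had 99.8% to 99.9% and guinea pig hearts 39.1% to 65.8%. No gene length entered these shares, and reads may be divided between the myosin chains. They therefore describe shares of reads and not the amount of each chain.

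Myh7b, a slow-type myosin of the heart and other muscles, was at 14.96, 15.24 and 14.69 in naked hearts and at 10.55, 11.98, 11.22, 14.37 and 11.82 in Damaraland hearts, where replicate 4 was high. The difference was 2.98 (SE 0.63, limma adjusted p 0.00159). Ttn, the giant elastic protein titin, was lower in naked hearts, with values of 14.46, 14.48 and 14.52 against 16.99, 16.76, 16.93, 17.81 and 16.37. Its difference of -2.49 (SE 0.29, limma adjusted p 1.55e-05) was matched by -2.46 in liver, and its level was lower than in guinea pig (16.43) and mouse (20.07). Among 16 thick filament and M-band genes, 6 were called higher (37.5%) and 3 lower (18.8%) in naked, but the count of higher genes was 3 without naked replicate 2, Damaraland replicate 1 or Damaraland replicate 3. The ventricular light chain genes Myl2 and Myl3 had differences of -0.48 and 0.03 and were not called.

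In the thin filament 3 of 14 tested genes were called higher and 3 lower in naked, 21.4% each way against 14.5% and 15.5% of all genes. Tpm3, a tropomyosin of slow muscle and non-muscle cells, was at 10.87, 10.75 and 10.46 in naked hearts and at 13.87, 15.27, 14.77, 14.82 and 14.71 in Damaraland hearts. Damaraland hearts lay above guinea pig (9.99) and mouse (9.82), and the difference was -3.99 (SE 0.27, limma adjusted p 2.17e-07). Tnnt1, the slow skeletal troponin T, was at 14.02, 13.80 and 12.72 against 11.01, 12.34, 11.75, 11.72 and 12.08, a difference of 1.73 (SE 0.33, limma adjusted p 0.000797). Both mole-rats had more Tnnt1 than guinea pig (9.69) and mouse (7.98). The cardiac isoforms Tnnt2 and Tnni3 were not called (differences of -0.74 and -0.20). The slow troponin I gene Tnni1 was not called at 0.52 (limma adjusted p 0.408), but it was called without Damaraland replicate 5 (1.02, limma adjusted p 0.00336) and with the replicate number as a block (1.18, limma adjusted p 0.00199). Damaraland replicate 5 had the highest Tnni1 value of the 8 libraries, 13.66, against 10.72 to 11.65 in the other Damaraland hearts. At the Z-disc and the membrane skeleton, 5 of 22 genes were called lower in naked (22.7%), among them Fhl2 (-2.82), Dmd (dystrophin, -2.33) and Myot (myotilin, -2.28), and 3 were called higher, a count that fell to 0 without Damaraland replicate 5.

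**Figure D3:**
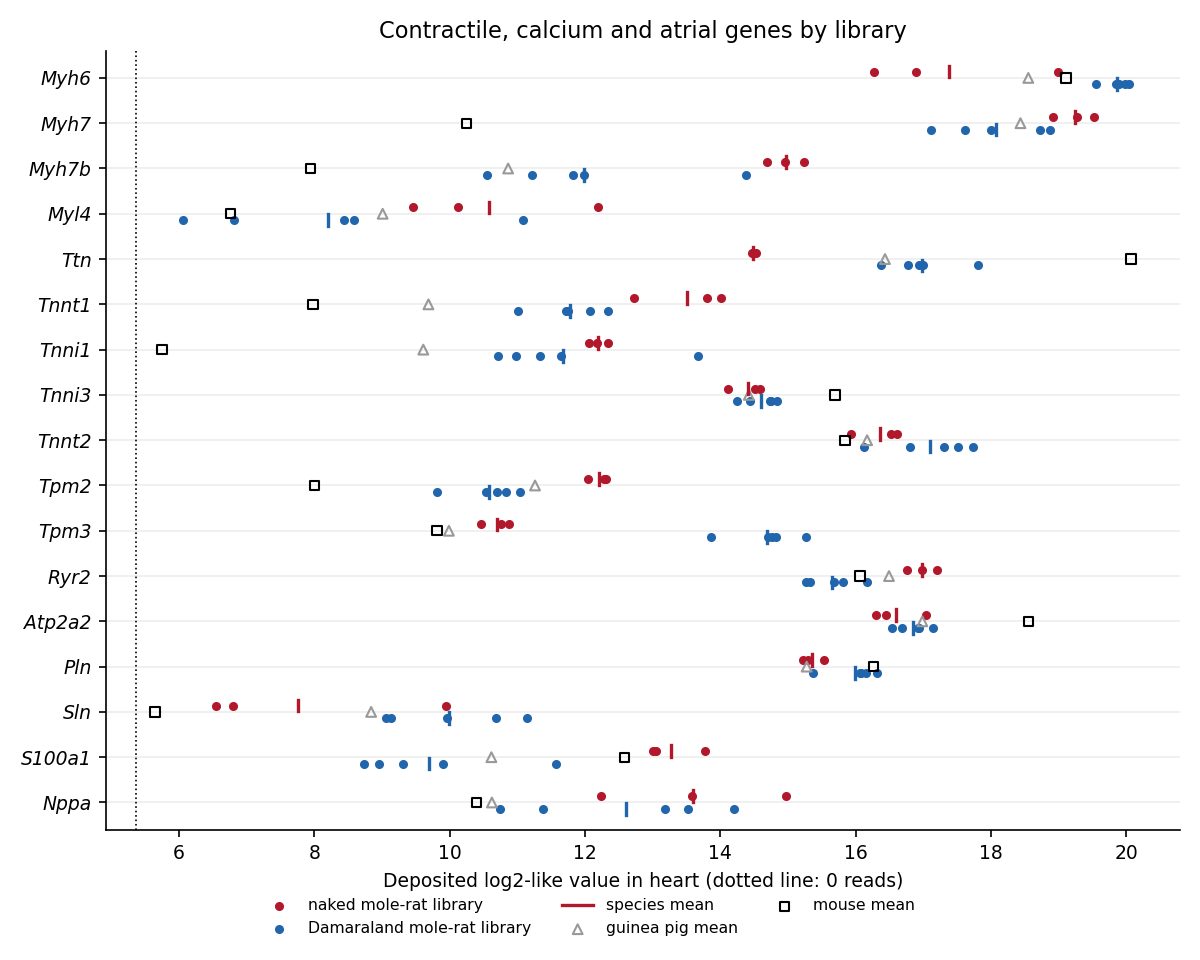
Deposited log2-like value in every naked and Damaraland mole-rat heart library (points, species mean as a bar), with guinea pig and mouse means and the value of 0 reads as a dotted line, for 17 genes of the sarcomere, of calcium handling and of the atria. Ttn, Tpm3, Ryr2, S100a1, Tnnt1 and Tpm2 do not overlap between the species, while Sln, Myl4 and Nppa spread widely within each.

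Of 20 calcium handling genes, 6 were called higher (30.0%, against 14.5% of all genes) and 4 lower (20.0%, against 15.5%). Ryr2, the channel that releases calcium from the sarcoplasmic reticulum, was at 16.98, 16.76 and 17.20 in naked hearts and at 15.67, 15.33, 15.81, 16.17 and 15.26 in Damaraland hearts. The difference of 1.33 (SE 0.25, limma adjusted p 0.000704) corresponds to 2.47 times the scaled reads. S100a1, a calcium sensor that raises ryanodine receptor and pump activity, was at 13.05, 13.00 and 13.78 against 8.96, 11.57, 9.91, 8.73 and 9.31, a difference of 3.58 (SE 0.52, limma adjusted p 9.28e-05). Casq1, the skeletal form of the calcium store protein calsequestrin, was also higher in naked (2.58). Calm3, a calmodulin gene, was at 10.30, 10.20 and 10.22 in naked hearts and at 12.65, 13.33, 13.18, 12.85 and 13.25 in Damaraland hearts (difference -2.81). The pump gene Atp2a2 (-0.25) and its inhibitor Pln (-0.64) were not called.

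Sln, the atrial inhibitor of that pump, was called lower in naked (-2.23, SE 0.70, limma adjusted p 0.0161) although the species overlapped. It was at 6.80, 6.55 and 9.95 in naked hearts, and without naked replicate 1 or 2 the adjusted p was 0.0752 and 0.0878. Atrial genes varied between libraries of a species: Myl4, the atrial light chain, was at 9.46, 10.12 and 12.19 in naked hearts and at 8.59, 6.06, 8.44, 6.82 and 11.08 in Damaraland hearts. Naked replicate 3 and Damaraland replicate 5 were the highest of their groups for Myl4, for Nppa (32134 and 18789 scaled reads) and for Mybphl (378 and 119). Over all 10 atrial markers in the table, naked replicate 3 was the highest naked library for 7 and Damaraland replicate 5 the highest Damaraland library for 5. Stard10, a lipid transfer protein gene on that list, was called lower in naked (-3.38), with naked replicate 3 the lowest of all libraries. The called difference of Myl4 (2.39, SE 0.92, limma adjusted p 0.0424) was 1.59 without naked replicate 3 and not called (adjusted p 0.199). It was also not called without naked replicate 2 or any 1 of Damaraland replicates 1 to 4 (adjusted p 0.0582 to 0.0962). How much atrium each piece of heart held was not tested.

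Of 29 channel and pump genes of the cell membrane, 9 were called higher in naked (31.0%, against 14.5% of all genes) and 2 lower (6.90%, against 15.5%), or 1 lower without naked replicate 3. The median difference was 0.63. Cacna1g, a T-type calcium channel of pacemaker and conduction cells, was at 10.22, 10.29 and 9.99 in naked hearts and at 6.49, 6.63, 6.24, 7.01 and 7.43 in Damaraland hearts, below the guinea pig (8.49) and mouse (8.79) means. Its difference was 3.41 (SE 0.25, limma adjusted p 3.78e-07), and it was called in liver in the same direction. Abcc8, the regulatory subunit SUR1 of ATP-sensitive potassium channels, was at 9.92, 10.64 and 11.06 against 7.40, 7.69, 7.16, 8.14 and 7.12 (difference 3.04). The partner genes Kcnj11 (1.84) and Abcc9 (1.62), looked up after the values of Abcc8 had been seen, were called higher as well, while Kcnj8, another pore subunit gene of these channels, was not called (-0.42). Kcna4 (2.09), a channel of the transient outward potassium current, and Fxyd1 (2.17), the phospholemman that regulates the sodium pump, completed the 4 largest differences.

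In adrenergic and muscarinic signalling 4 of 20 genes were called higher (20.0%) and 3 lower (15.0%), near the shares over all genes of 14.5% and 15.5%. Rgs4, which shortens G protein signals, was at 10.62, 10.21 and 11.37 in naked hearts and at 6.11, 5.99, 6.20, 6.02 and 6.28 in Damaraland hearts, with guinea pig and mouse at 7.86 and 8.02. Its difference was 4.61 (SE 0.23, limma adjusted p 1.77e-08), while its relative Rgs2 went the other way (-2.64). Adra1b, an alpha-1 adrenergic receptor, was near the value of 0 reads in naked hearts, at 5.78, 5.81 and 6.22 against 8.85, 8.44, 8.95, 8.32 and 8.44 (difference -2.67). At the intercalated disc, Gja5, the connexin 40 of atria and conduction tissue, was at 6.94, 6.51 and 8.41 in naked hearts and at 10.76, 10.71, 10.68, 11.76 and 11.48 in Damaraland hearts. The difference of -3.79 (SE 0.39, limma adjusted p 6.13e-06) set Damaraland apart from guinea pig (7.48) and mouse (7.28). The desmosomal cadherins Dsg2 (1.66) and Dsc2 (1.56) were higher in naked. Of 22 cardiac transcription factor genes 2 were called higher (9.09%), Gata4 (1.53, named after its value was seen) and Mef2c (1.74), and 5 lower (22.7%), with Hopx (-3.91), Irx4 (-2.05) and Mef2a (-1.66) the largest of these. Without naked replicate 3 the higher count was 5.

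The respiratory chain passes electrons from fuels to oxygen, and nuclear genes encode most of its subunits. Of 34 subunit genes of complex I, which takes electrons from NADH, 15 were called lower (44.1%, against 15.5% of all genes) and 1 higher (2.94%, against 14.5%), with a median difference of -0.80. In 14 of the 15 the naked mean was below both the guinea pig and the mouse mean, and in 8 the Damaraland mean was above both. The same shares over all genes called lower were not counted. Ndufb4 was at 8.59, 8.74 and 9.27 in naked hearts and at 11.51, 11.67, 11.63, 11.02 and 11.02 in Damaraland hearts, a difference of -2.50 (SE 0.23, limma adjusted p 2.21e-06). Ndufb6 was at 9.08, 8.96 and 9.41 against 10.94, 11.75, 11.77, 10.53 and 11.36 (difference -2.12), where Damaraland matched guinea pig (11.13) and mouse (11.31). The other named members were Ndufa4, listed at 0 in naked, and Ndufab1 (-3.39), which also serves mitochondrial fatty acid synthesis. Ndufab1 was near the value of 0 reads in naked hearts, at 5.78, 5.87 and 5.97. The 1 member called higher, Ndufb2 (1.15), was chosen after its value was seen, and the count of higher members moved between 0 and 2 as single libraries were left out. The count of lower members stayed between 15 and 17.

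Complexes II to V showed 12 of 42 called lower (28.6%) and 2 higher (4.76%), with a median of -0.49. Atp5l, a subunit of the ATP synthase membrane part, was at 9.88, 9.91 and 11.16 in naked hearts and at 12.75, 12.77, 13.16, 11.76 and 12.10 in Damaraland hearts (difference -2.19, SE 0.35, limma adjusted p 0.000233). Atp5e (-2.75), the epsilon subunit of ATP synthase, Uqcr10 (-1.96), of complex III, and Cox7c were the other members with differences of this size. The liver comparison uses other libraries (4 naked and 5 Damaraland, 1 of them from a female), and 6 of the 8 heart animals gave liver too. Of 34 complex I genes 10 were called higher and 2 lower in naked liver (median 0.31), and of 41 genes of complexes II to V 13 were called higher and 4 lower (median 0.23). Across all genes tested in liver 34.9% were called, 16.8% higher and 18.1% lower in naked. The tables of the tissues were normalised separately, and the difference between the tissues was not tested.

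Fatty acid oxidation genes were called lower in naked heart in 11 of 33 cases (33.3%) and higher in 1 (3.03%), with a median of -0.52. The higher count was 2 without naked replicate 2 or 3 or Damaraland replicate 1 or 3. The adipocyte marker sum, lower in naked hearts, shares Fabp4 (-1.55) with this list, and its part in the list was not tested. Beside Acaca these were led by Acsl6, an acyl-CoA synthetase, with naked values of 5.72, 5.36 and 5.80 and Damaraland values of 9.99, 10.40, 10.06, 9.56 and 9.40 (difference -4.25), Decr1 (-2.12), which handles unsaturated fatty acids, and Slc25a20 (-1.71), the carnitine carrier of the inner membrane. The naked values of Acsl6 were at or near that of 0 reads. Acaca makes rather than burns fatty acids, and the gate of the pathway in muscle, Cpt1b, did not reach the threshold. Cpt1b was at 12.62, 12.56 and 13.17 against 13.18, 13.05, 12.93, 12.77 and 12.45, a difference of -0.09 (SE 0.22, limma adjusted p 0.743). In liver 7 of 33 genes of this list were called higher and 5 lower, Cpt1b being higher by 2.37. In the citric acid cycle 3 of 20 genes were called lower, Idh3b (-1.51), Cs (-1.11) and Ogdh (-1.07), and none was called higher by limma. The lower share of 15.0% was near the 15.5% of all genes, and the higher share was 0% against 14.5%. Without naked replicate 2 the count was 1, since Cs and Ogdh then had differences of -0.96 and -0.94. Ogdh was also not called without Damaraland replicate 1 (-0.99).

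**Figure D4:**
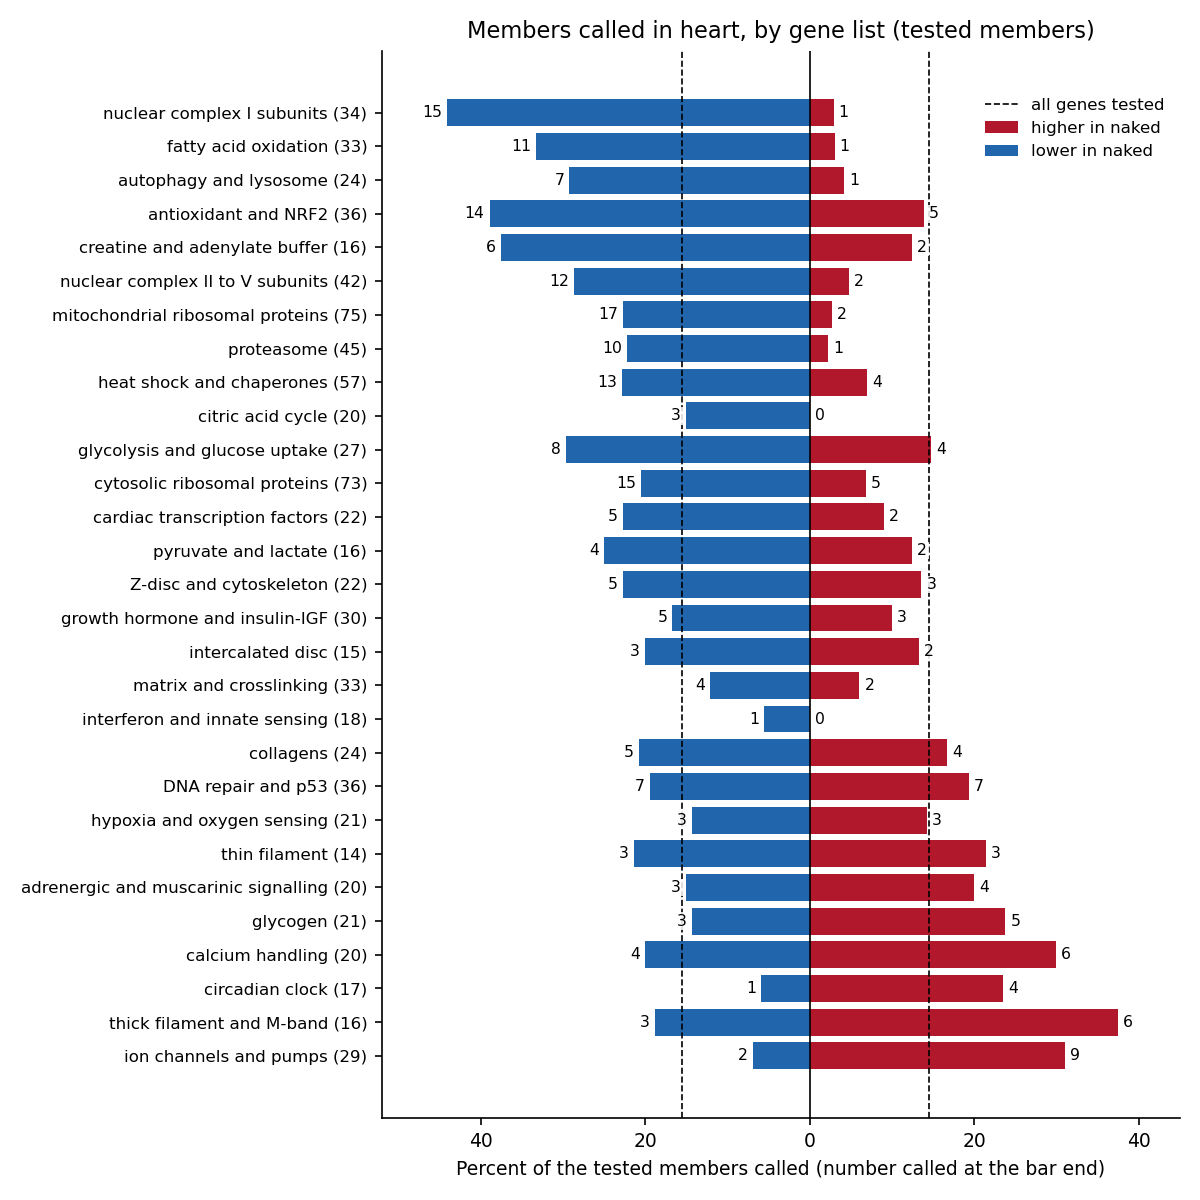
Percent of the tested members of each gene list (number tested in brackets, lists of 14 or more) called higher (right) or lower (left) in naked mole-rat heart, with the number called at the end of each bar and dashed lines at the shares over all 10627 genes, 14.5% and 15.5%. Complex I is at one end, with 15 lower and 1 higher of 34, and ion channels and pumps at the other, with 9 higher and 2 lower of 29.

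Glycolysis and glucose uptake held 8 genes called lower (29.6%) and 4 higher (14.8%) of 27. Ldha, the lactate dehydrogenase subunit that favours lactate formation, was at 11.28, 11.33 and 11.04 in naked hearts and at 14.79, 14.95, 15.10, 14.50 and 14.85 in Damaraland hearts. The difference was -3.62 (SE 0.19, limma adjusted p 2.86e-08), or 12.8 times the scaled reads in Damaraland, with guinea pig at 12.26 and mouse at 13.23 between the mole-rats. Pgam1, the broadly expressed phosphoglycerate mutase, was at 10.89, 10.48 and 10.69 against 14.53, 14.29, 14.59, 13.89 and 14.25 (difference -3.62). The muscle form Pgam2, looked up after the value of Pgam1 had been seen, was called higher in naked (3.26). The insulin-responsive glucose transporter gene Slc2a4 (0.01) and the fructose transporter gene Slc2a5 (0.01) were not called. Among pyruvate and lactate genes, beside Pdk1, Pdk3 was higher in naked (1.73) and the pyruvate carrier gene Mpc1 lower (-1.17). Pdk4, the kinase that spares glucose in fasting, had a difference of 1.09 (SE 0.33, limma adjusted p 0.0139) that fell under 1 without naked replicate 1 or any of Damaraland replicates 1 to 3, where it was 0.98, 0.97, 0.98 and 0.93.

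Glycogen breakdown by phosphorylase was represented by both the muscle gene Pygm and the liver gene Pygl. Pygm was at 11.51, 11.61 and 11.82 in naked hearts and at 14.18, 14.44, 14.41, 14.13 and 14.44 in Damaraland hearts, where it was near the mouse mean of 14.50. The difference was -2.67 (SE 0.18, limma adjusted p 1.93e-07). Pygl was at 12.85, 12.49 and 12.90 against 16.22, 14.87, 14.73, 13.39 and 15.25, a difference of -2.14 (SE 0.46, limma adjusted p 0.00183), and was called lower in naked liver too (-2.26). The catalytic subunit gene of phosphorylase kinase, Phkg1, went the other way, with 9.73, 9.60 and 9.36 in naked hearts and 7.22, 7.11, 6.84, 7.08 and 7.10 in Damaraland hearts (difference 2.49). In the list as a whole 5 of 21 genes were called higher (23.8%) and 3 lower (14.3%).

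The creatine kinase gene Ckm, whose protein buffers ATP at the filaments, was at 14.23, 14.13 and 13.75 in naked hearts and at 16.89, 17.41, 17.10, 16.70 and 17.09 in Damaraland hearts. The difference of -3.00 (SE 0.23, limma adjusted p 4.99e-07) corresponds to 8.07 times the scaled reads in Damaraland, with guinea pig (16.06) and mouse (15.40) between. Ckb, the brain-type isoform, was higher in naked (2.17). Of 16 genes of the creatine and adenylate buffer 6 were called lower (37.5%), among them Ak3 (-3.61) and Ak1 (-1.60), and 2 higher. Mb, the oxygen store myoglobin, was at 16.98, 16.90 and 14.98 in naked hearts and at 17.75, 18.33, 18.03, 17.69 and 17.44 in Damaraland hearts. Its difference was -1.56 (SE 0.41, limma adjusted p 0.00663), and without naked replicate 3 it was -0.91 and no longer called. Other oxygen-related genes were mixed, with 3 of 21 called higher and 3 lower (14.3% each). Bnip3, a mitophagy receptor induced by low oxygen, was lower in naked (-2.54), the globin gene Cygb was higher (1.61) and Hif1a was not called (-0.57, SE 0.26, limma adjusted p 0.0784).

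Ribosomes build proteins and proteasomes break them down. Of 73 cytosolic ribosomal protein genes 15 were called lower (20.5%, against 15.5% of all genes) and 5 higher (6.85%, against 14.5%), with a median of -0.37. The higher count was 2 without Damaraland replicate 4 or naked replicate 2. Rpl4, Rpl8 and Rps13 were at or near 0 reads in naked hearts (differences of -7.26, -6.33 and -6.05), and the differences of the other called members lay between -2.12 and 2.34. In liver the same list had 20 called higher and 4 lower of 74, with a median of 0.69. Mitochondrial ribosomal proteins had 17 of 75 lower (22.7%) and 2 higher (2.67%), led by Mrpl57 (-2.50) and Mrpl44 (-2.44). In liver 16 of these 75 were called higher and 5 lower. Proteasome genes had 10 of 45 lower (22.2%) and 1 higher (2.22%), led by the assembly chaperone genes Psmd9 (-2.56) and Psmd10 (-2.26). The proteasome gene higher in naked lost the call without naked replicate 3 or Damaraland replicate 4 or 5. Ribosomal protein genes have many processed copies in rodent genomes, so their counts carry more doubt than most.

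**Figure D5:**
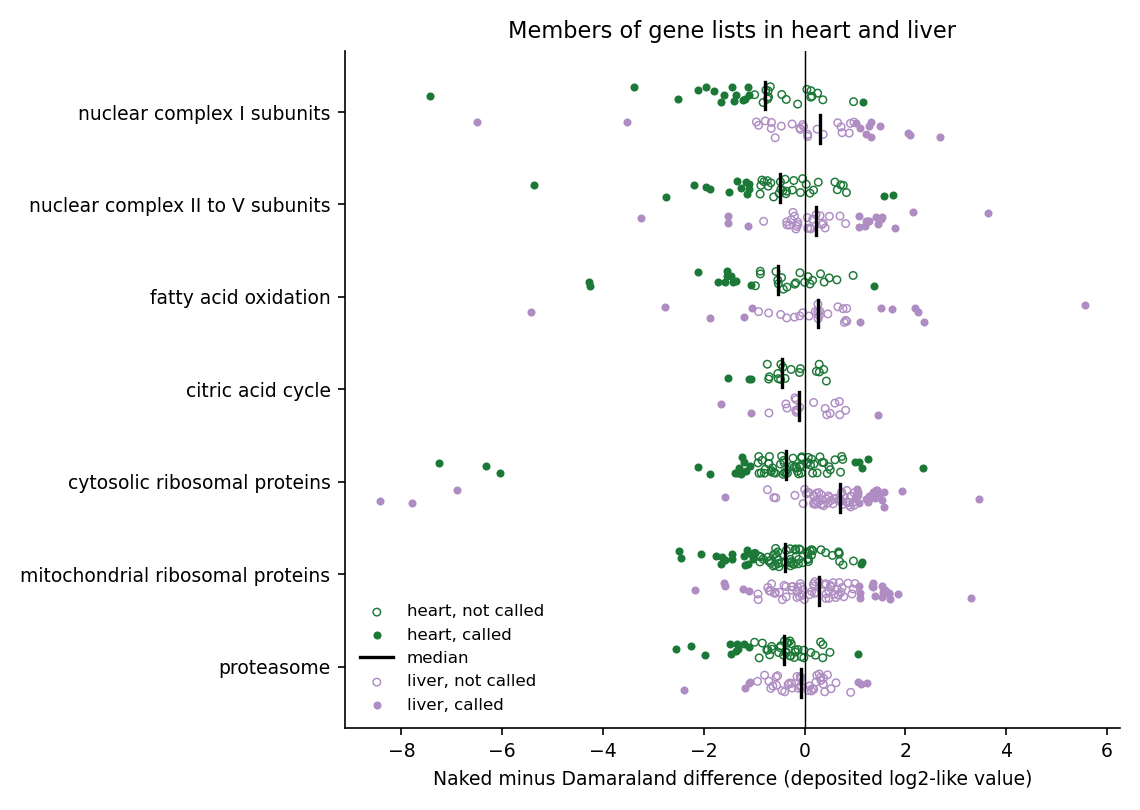
Naked minus Damaraland difference of each member (points, filled where called) of 7 gene lists in heart and in liver for genes tested in heart, with the median as a bar. The medians are below 0 in heart for all 7 lists, from -0.80 to -0.37, and above 0 in liver for both respiratory chain lists, fatty acid oxidation and both ribosomal lists.

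Of 57 heat shock and chaperone genes 13 were called lower (22.8%) and 4 higher (7.02%) in naked. Hsp90aa1, the inducible HSP90, was nearly without reads in naked hearts, and Dnaja1, a co-chaperone of HSP70, was nearly without reads in Damaraland hearts (5.36 to 5.58) but at 10.33, 10.59 and 10.40 in naked hearts. Bag1 (-2.97) and Hspb3 (-2.60) were the next in size. Antioxidant genes were lower in naked in 14 of 36 cases (38.9%) and higher in 5 (13.9%). Prdx1, a peroxiredoxin, was at 8.45, 8.27 and 8.69 in naked hearts and at 12.25, 12.02, 12.03, 11.60 and 10.96 in Damaraland hearts, a difference of -3.30 (SE 0.27, limma adjusted p 8.58e-07). Gpx4, which repairs oxidised membrane lipids, was at 8.32, 7.79 and 9.13 against 11.49, 11.72, 11.94, 11.21 and 11.27 (difference -3.11). Gpx3, a secreted glutathione peroxidase, went the other way at 10.95, 10.63 and 12.32 against 7.90, 8.06, 7.75, 6.99 and 8.68 (difference 3.43), with Damaraland below guinea pig (11.84) and mouse (10.44). Nfe2l2, which encodes the regulator NRF2, was not called (0.17, SE 0.24, limma adjusted p 0.585).

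Autophagy and lysosome genes had 7 of 24 lower (29.2%) and 1 higher (4.17%). Ctsd, a lysosomal protease, was at 12.23, 11.89 and 11.48 in naked hearts and at 14.60, 14.47, 14.43, 14.31 and 13.88 in Damaraland hearts, the Damaraland level matching guinea pig (14.36) and mouse (13.90). Its difference was -2.47 (SE 0.23, limma adjusted p 2.51e-06). The autophagosome genes Map1lc3a (-3.22) and Map1lc3b (-2.67) were lower as well, and 5 of the 7 were also called lower in naked liver. In growth hormone and insulin-like growth factor signalling 3 of 30 genes were called higher (10.0%, against 14.5% of all genes) and 5 lower (16.7%, against 15.5%), or 8 lower without naked replicate 3. Foxo4 (2.19) was higher, while Igfbp5 (-1.90) and Igfbp3 (-1.65), which bind insulin-like growth factors, were lower. In DNA repair and the p53 pathway 7 of 36 were called in each direction (19.4%), or 4 higher without naked replicate 3. Mdm2 (-2.45), Cdkn1a (-2.14) and the repair glycosylase gene Ogg1 (-1.54) were among those lower in naked.

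In the extracellular matrix and its crosslinking enzymes 2 of 33 genes were called higher (6.06%) and 4 lower (12.1%), with 1 higher without naked replicate 2 or any 1 of Damaraland replicates 2 to 4. Col5a1, a fibril-initiating collagen chain, was at 8.09, 8.68 and 7.01 in naked hearts and at 10.35, 10.16, 10.66, 10.87 and 11.87 in Damaraland hearts, a difference of -2.86 (SE 0.40, limma adjusted p 8.03e-05). Col11a1 was higher in naked (2.02), and of 24 collagen genes 4 were called higher (16.7%) and 5 lower (20.8%). Without Damaraland replicate 5, which had the highest fibroblast marker sum (50088 scaled reads, against 13702 to 20239 in the other Damaraland hearts), 7 were higher and 3 lower. The small proteoglycan genes Bgn (1.68) and Dcn (-1.61) went opposite ways. Clock genes gave 4 higher of 17 (23.5%), Clock (1.58), Per2 (1.37), Hlf (1.16) and Ciart (1.10), and 1 lower (5.88%). Without naked replicate 3 the higher count was 2, and without naked replicate 1 or Damaraland replicate 5 the lower count was 0. The time of day of sampling is not given in the sources used here. Of 18 interferon and innate sensing genes 1 (5.56%), Tlr3 (-1.19), was called, lower in naked, while without naked replicate 1 there was 1 called higher too and without naked replicate 2 there were 2 lower. Complement C3 was called higher in naked (2.11, SE 0.46, limma adjusted p 0.00193), but Damaraland replicate 5, at 12.31, overlapped the naked range of 12.29 to 12.95.

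Of the 3192 genes called in heart, 2935 were also tested in liver. There, 1391 of them (47.4%) were called in the same direction, 147 in the opposite direction and 1397 were not called. Among the 77 called genes with a heart difference of at least 4, 73 were tested in liver and 60 had the same call there.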

How the data were processed

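RNA was extracted from flash-frozen tissue, ribosomal RNA was removed, and libraries were sequenced on an Illumina NovaSeq instrument, per the labels' protocols. The submitters' processing notes name cutadapt, Salmon, DESeq2 and the build GRCm38. The transcript set used for each species and the way genes were matched between species are not given in the sources used here. The authors deposited 1 table per tissue of log2-like values from the variance-stabilising transform of DESeq2. A further 26 columns that belong to other series were not used.

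The transform was inverted to scaled reads, and reads came out whole in every library (deviation from a whole number at most 1.42725e-07). Confidence limits and floors on reads cover counting error only. Genes with a mean over the 8 heart libraries of at least 1 above the table minimum of 5.3645 were fitted with limma 3.58.1 (trended empirical Bayes, R 4.3.3), with Benjamini-Hochberg adjustment over all 10627 genes. The liver table was fitted the same way. On simulated data at this size 91% of 4-fold and 19% of 2-fold changes were called. The mitochondrial share was tested with an exact permutation test.

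Named genes were the 12 largest called differences in each direction among genes with both species means at least 1 above the minimum, the 5 largest in each direction with a low species, the 10 genes with the highest values, a set of cardiac and fuel genes, and up to 4 called members of each of 33 gene lists. The 12 and the 5 in each direction were taken only from genes whose libraries did not overlap between the species. The members, gene lists and 14 marker lists were chosen with earlier results of these data known. Alternatives covered scaling, filters, variance models, weights, blocks, recovered reads and leaving out libraries. Near-identical paralogs, such as calmodulins, tropomyosins and ribosomal proteins, may share reads. A few genes are not reported here.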

Additional observations from a re-analysis of the deposited data

Results flagged for a closer look

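In 13 of 169 comparisons of 1 library with the other Damaraland hearts, a library stood apart from the rest of its group, where chance gives about 1 in 20. Of these, 6 were in Damaraland replicate 4, 5 in replicate 5 and 1 each in replicates 1 and 3. In replicate 4 the sarcomere genes Actc1 (16.59, others 17.37 to 17.64) and Myl3 (15.48, others 16.07 to 16.29) and the calcium pump inhibitor gene Pln (15.37, others 16.06 to 16.31) were low. The collagen gene Col8a1 was low there too (8.93, others 10.19 to 10.61), while Wdr62 (6.86, others 6.55 to 6.63) was high and Dnaja1 (5.58) was the only one with a value above that of 0 reads (5.36). In replicate 5, Col15a1 (13.22, others 11.64 to 11.94) and complement C3 (12.31, others 9.68 to 10.28) were high, Anapc7 (12.62, others 13.93 to 14.36) and Atp5e (8.95, others 10.59 to 10.74) were low, and Pdzd2 (5.64) was the only one above the value of 0 reads. Cxcl12 was low in replicate 3 (6.53, others 7.13 to 7.3), and Trp53inp2, an autophagy gene, was high in replicate 1 (8.6, others 7.06 to 7.41).

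For 10 of the 167 named genes every naked library lay on one side of every Damaraland library in heart and on the opposite side in liver. The share of such genes over all genes was not counted, and in heart alone 52.1% of all tested genes did not overlap. Of the 2935 called heart genes tested in liver, 147 were called there in the opposite direction. The difference between the tissues was not tested. The GTPase regulator gene Spata13 differed by 3.78 in heart and -1.85 in liver, the natriuretic peptide receptor gene Npr2 by 1.41 and -3.45, the glycogen-targeting subunit gene Ppp1r3b by 1.83 and -1.03, and the circadian output gene Hlf by 1.16 and -1.95. Lower in naked heart and higher in naked liver were Rgs2 (-2.64 and 3.18), Decr1 (-2.12 and 2.25), Slc25a4, the adenine nucleotide carrier (-1.29 and 1.82), Dmd (-2.33 and 0.9), Dcn (-1.61 and 0.96) and Ak1 (-1.6 and 0.81).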

How the results depend on the processing

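The count of 3192 called heart genes was within 1.5 times under all but 3 of 22 alternatives. It was 6026 with no limit on size, 1307 when limma tested against a difference of 1, and 2038 among genes above the median of the table. That last setting tested 7012 genes, against 10627 in the main fit, so its count is not on the same base. Testing recovered reads with limma-voom gave 4424, and leaving out single libraries gave 3145 to 3303. The liver count of 3772 was 7451 with no limit on size and 3782 to 3830 without single libraries. The difference in mitochondrial share ran from 23.4 to 25.5 points without single libraries. Replicate numbers did not pair the animals (correlations of deviations in heart of -0.09, -0.03 and -0.09), and with the replicate block 3343 heart and 3800 liver genes were called.

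Of 167 named genes, 152 were called, and 119 of these were tested under every alternative, the stricter filters removing the other 33. Of the 119, 107 were called under every alternative other than the test against 1 and 83 under all. No named gene changed direction in a fit that included it. Under the test against 1, complex I had 6 members called lower (12 with quantile normalisation), complexes II to V 5 (8 with quantile normalisation, 18 with the block) and fatty acid oxidation 5. Sln had an adjusted p of 0.0681 with the block in limma. With the limit of 1 on the size, 19% of simulated 2-fold changes were called, since a 2-fold change moves the value by less than 1.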

Other observations

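A few gene groups gave differences too few for the account above. Among 5 natriuretic peptide and receptor genes Npr2 was called higher (1.41) and Npr3 lower (-1.30) in naked hearts, and Npr3 was not called without naked replicate 1 or 2 or Damaraland replicate 2, 4 or 5. Of 9 tested genes of thyroid signalling, thermogenesis and uncoupling 1 was called higher (11.1%) and 3 lower (33.3%), or 1 lower without naked replicate 1 or 2. Of 10 complement genes 2 were called higher and 4 lower. Among the lower was Cfd (-2.28), which adipocytes secrete and which is itself part of the adipocyte marker sum. Eps8l2, an actin regulator, had at most 15.9 scaled reads in Damaraland hearts against 689 to 3337 in naked hearts, while the livers of both species had similar amounts (1163 to 1956 and 1024 to 1946).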
